A study of Mus musculus with 6 samples.

Results

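The immunoglobulin constant genes encode the part of an antibody chain that does not vary with the antigen, and the heavy chain constant gene in use sets the antibody's isotype. RNA from 10 such genes was examined: Ighm (IgM), Ighd (IgD), Ighg1, Ighg2b, Ighg2c and Ighg3 (the IgG subclasses), Igha (IgA), Igkc (the kappa light chain), and Iglc1 and Iglc2 (lambda light chains). The family was selected because Ighm and Igkc had been seen to differ between the genotypes, so every difference between the genotypes in these genes is given as a description with no test. Values were obtained for 9 of the 10 genes, among 42256 genes in all, and Iglc1 is not analysed here. All 9 measured genes passed the filter on low counts.

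The libraries were made from total RNA of PDGFRa+ cells, a fibroblast-like fraction that was sorted by flow cytometry from collagenase-digested scar tissue of mouse hearts, 7 days after injury. The mice were of the strain Mixed 129S2/C57Bl6, and every group was fed tamoxifen chow, starting 1 week ahead of the injury and continuing to the end. In the 2 control libraries the genotype was Htr2bfl/fl, a serotonin receptor gene flanked by loxP sites with no Cre. In the 4 Htr2b_cKO libraries the genotype was Htr2bfl/flPostnMCM/+, in which a tamoxifen-activated Cre (MerCreMer) sits at the periostin locus, a gene of activated fibroblasts. No control carried the Cre or its Postn allele, so effects of these and of Htr2b deletion cannot be told apart. Immunoglobulin is known as a product of B cells and plasma cells, not of fibroblasts, and Htr2b and Postn are not immunoglobulin genes. The series design counts animals in the same numbers as libraries, so a library was read as 1 animal. The control libraries were numbered 1 and 2 and the Htr2b_cKO libraries 1 to 4 by their order in the series, a name only, and values are given in that order.

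Several libraries stood apart. Htr2b itself had 13 and 7 counts in the controls and 0, 3, 29 and 4 in the Htr2b_cKO libraries. The library labelled Htr2b_cKO 3 thus lay above both controls. These counts are low, and counts per gene cannot show whether the floxed part was deleted. The library labelled Htr2b_cKO 4 was the only male, with 0.267 CPM (counts scaled to a common library size) of Xist and 139 CPM over 4 Y-linked genes, against at least 385 CPM and at most 0.483 CPM elsewhere. The libraries held between 28533427 and 37392496 estimated counts. Where a gene had 0 counts, up to 3 remain possible, or 0.078 to 0.108 CPM, a limit for counting error only. Pdgfra, the sorting marker, was at 668 to 1236 CPM, and 4 fibroblast markers (Pdgfra, Col1a1, Dcn, Tcf21) summed to 22916 to 41998 CPM.

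In B cells, recombined V, D and J segments are first spliced to Ighm and Ighd, which are read as 1 long transcript and yield the surface IgM and IgD of naive cells. Class switch recombination later removes the DNA between, so that the same variable region is joined to an Ighg, Ighe or Igha gene further along the locus. A plasma cell secretes large amounts of the chosen isotype, paired with a kappa or a lambda light chain. The heavy chain genes lie on the minus strand of chromosome 12 of the mouse build mm10, in transcriptional order Ighm (113418558 to 113422730), Ighd (113406604 to 113416324), Ighg3 (113356224 to 113361232), Ighg1 (113325240 to 113330523), Ighg2b (113302965 to 113307933), Ighg2c (113285325 to 113288932) and Igha (113254830 to 113260236). Igkc lies on the plus strand of chromosome 6 (70726435 to 70726966), and Iglc2 on the minus strand of chromosome 16 (19198396 to 19200351). GENCODE M21 annotates all of them as constant region genes.

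The IgG subclasses and the lambda genes resemble each other, which bears on how far counts can be assigned. The beginning of the first coding exon of each Ighg gene is given for comparison, read 5′ to 3′ from the GENCODE M21 transcripts, with capitals where a base differs from Ighg2b in an ungapped comparison.
Ighg2b (chr12:113307844-113307933, minus strand): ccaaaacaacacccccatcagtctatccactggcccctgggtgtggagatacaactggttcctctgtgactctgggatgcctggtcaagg
Ighg2c (chr12:113288843-113288932, minus strand): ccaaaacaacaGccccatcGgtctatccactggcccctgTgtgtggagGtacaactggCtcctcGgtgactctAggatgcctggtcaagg
Ighg1 (chr12:113330434-113330523, minus strand): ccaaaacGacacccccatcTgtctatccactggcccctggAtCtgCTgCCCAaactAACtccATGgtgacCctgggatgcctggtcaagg
Ighg3 (chr12:113361143-113361232, minus strand): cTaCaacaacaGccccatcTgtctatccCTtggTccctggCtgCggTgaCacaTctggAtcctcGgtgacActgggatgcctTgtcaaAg
Over these 90 bases Ighg2c differed from Ighg2b at 7 positions, and Ighg1 and Ighg3 at 17 each. Over the whole coding sequence Ighg2b and Ighg2c matched at 85.7% of aligned positions, and the other pairs of Ighg genes at 74.1% to 76.3%. Of the 31-base words in the transcripts of Ighg2c, 15% also occurred in another gene, 14.4% in Ighg2b. The share was 9.29% for Ighg2b, 3.63% for Ighg3 and 1.72% for Ighg1. The counts of Ighg2b and Ighg2c are therefore uncertain to the extent that the authors' counting split such reads. Some mouse strains carry Ighg2a in place of Ighg2c, and how reads of such an allele were counted in this mixed strain was not tested.

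Among the lambda genes, Iglc2 and Iglc3 are closer still. The same stretch of the lambda genes follows, with capitals where a base differs from Iglc2.
Iglc2 (chr16:19198763-19198852, minus strand): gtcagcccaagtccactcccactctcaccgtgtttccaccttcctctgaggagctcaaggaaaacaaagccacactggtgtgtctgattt
Iglc3 (chr16:19065592-19065681, minus strand): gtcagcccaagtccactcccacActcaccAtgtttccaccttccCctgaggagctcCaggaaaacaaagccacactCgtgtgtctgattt
Iglc1 (chr16:19061982-19062071, minus strand): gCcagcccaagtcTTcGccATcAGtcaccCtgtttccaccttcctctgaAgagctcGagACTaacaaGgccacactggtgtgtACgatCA
Iglc3 differed from Iglc2 at 5 of these 90 bases and matched it at 96.2% of coding positions, while Iglc1 differed at 19. Of the 31-base words of Iglc2, 19.6% occurred in another gene, 18.2% in Iglc3. Lambda values below rest on Iglc2 and are uncertain for that reason. Ighm, Igkc and Igha shared no such word with another gene, and Ighd shared 0.107%. The same stretch of Ighm and Igkc follows, since most of the counts come from these 2 genes.
Ighm (chr12:113422641-113422730, minus strand): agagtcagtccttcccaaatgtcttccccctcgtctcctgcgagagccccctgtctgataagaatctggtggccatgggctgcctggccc
Igkc (chr6:70726435-70726524, plus strand): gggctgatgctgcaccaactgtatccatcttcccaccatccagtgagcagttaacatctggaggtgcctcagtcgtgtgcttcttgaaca

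IgM heavy chain and kappa light chain made up most of the constant gene RNA in every library. Ighm had 40042 and 28712 counts in the controls and 4368, 4617, 8718 and 29589 in the Htr2b_cKO libraries. In CPM this was 1041 and 1038 against 156, 139, 263 and 879. All 4 Htr2b_cKO libraries lay below both controls, but the library labelled Htr2b_cKO 4 was near the controls and the other 3 were far below. The group means were 1040 ± 2.67 CPM (SD, n = 2) and 359 ± 351 CPM (SD, n = 4), with a log2 fold change (Htr2b_cKO minus control, from edgeR) of -1.53, SE 0.79. In bulk RNA, fewer cells of a type and less RNA per cell cannot be told apart.

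Igkc showed the same order of libraries as Ighm. It had 14446 and 8754 counts in the controls and 1532, 1638, 3113 and 9636 in the Htr2b_cKO libraries, or 376 and 316 CPM against 54.6, 49.3, 93.9 and 286 CPM. The groups again did not overlap, and the library labelled Htr2b_cKO 4 came close to control 2. The means were 346 ± 42 CPM (SD, n = 2) and 121 ± 112 CPM (SD, n = 4), with a log2 fold change of -1.52, SE 0.75.

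Igha, the constant gene of the mucosal isotype IgA, overlapped between the groups. Its counts were 3676 and 1697 in the controls and 262, 866, 246 and 3131 in the Htr2b_cKO libraries, or 95.6 and 61.3 CPM against 9.33, 26.1, 7.42 and 93 CPM. The library labelled Htr2b_cKO 4 lay between the controls and the other 3 lay below both. The log2 fold change was -1.21, SE 1.02.

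The 4 IgG subclass genes varied most from library to library. Ighg2b had 121 and 29.8 CPM in the controls and 0, 9.67, 3.38 and 22.3 CPM in the Htr2b_cKO libraries, which lay below both controls (log2 fold change -3.09, SE 1.21). Ighg2c had 2.16 and 59.3 CPM against 0, 7.8, 21.6 and 5.82 CPM, so control 1 was lower than 3 of the 4 Htr2b_cKO libraries (log2 fold change -1.77, SE 1.46). The difference in Ighg2c CPM between the controls was thus larger than that between any pair of Htr2b_cKO libraries. Ratios are not compared, since Htr2b_cKO 1 was at 0. Ighg3 had 24.9 and 6.32 CPM against 0, 7.11, 0.181 and 31 CPM, with the highest value in the library labelled Htr2b_cKO 4 (log2 fold change -0.71, SE 1.60). Ighg1 had 0 and 16.2 CPM against 0.321, 0, 0 and 3.65 CPM (log2 fold change -2.93, SE 1.77). Ighg1 was thus at 0 counts in 3 of the 6 libraries, control 1 among them, and each of the other subclasses was at 0 in Htr2b_cKO 1 alone.

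Ighd, which naive B cells express beside Ighm, had 131 and 27 counts in the controls and 19, 6, 78 and 7 in the Htr2b_cKO libraries, or 3.41 and 0.976 CPM against 0.677, 0.181, 2.35 and 0.208 CPM. The library labelled Htr2b_cKO 3 exceeded control 2, so the groups overlapped (log2 fold change -1.42, SE 0.88). Iglc2 had 543 and 201 counts against 17, 66, 47 and 352, or 14.1 and 7.26 CPM against 0.605, 1.99, 1.42 and 10.5 CPM. The library labelled Htr2b_cKO 4 lay between the controls (log2 fold change -1.55, SE 0.94). Ighe, the constant gene of IgE and no member of the family as chosen, had 0 counts in all 6 libraries.

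**Figure D1:**
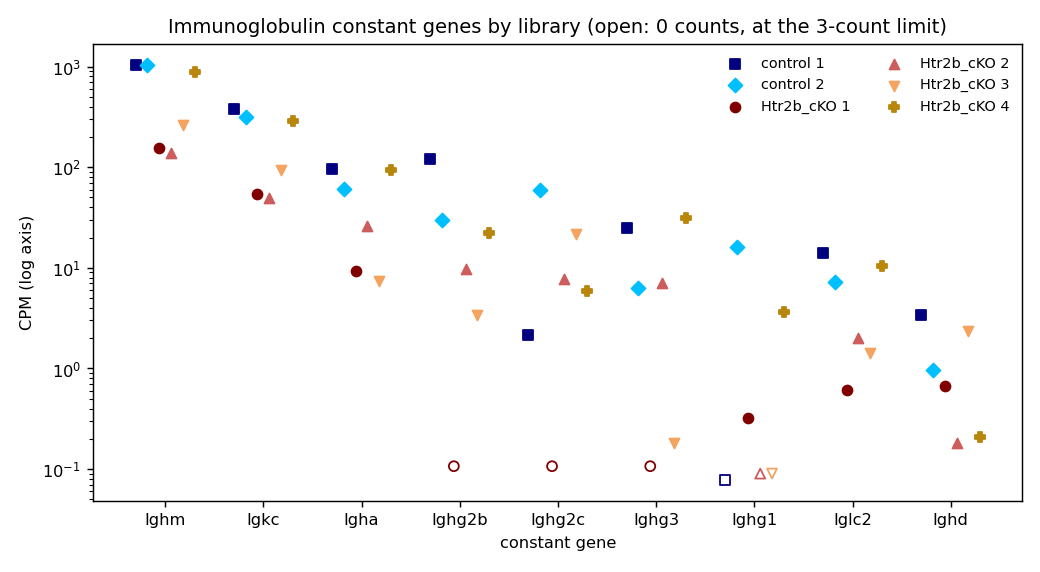
Level of each measured constant gene in CPM (log axis) for the 2 control and 4 Htr2b_cKO libraries, 1 point per library, with open symbols for 0 counts drawn at the limit of 3 counts. Ighm and Igkc keep the same order of libraries, while the IgG genes and Ighd do not.

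Together the 9 genes summed to 1679 and 1535 CPM in the controls and 221, 241, 393 and 1331 CPM in the Htr2b_cKO libraries. This was 0.173% and 0.149% of all counts against 0.0218%, 0.0242%, 0.0414% and 0.129%. The means were 1607 ± 101 CPM (SD, n = 2) and 547 ± 529 CPM (SD, n = 4), and the log2 ratio of the means was -1.56. Without the library labelled Htr2b_cKO 4 that log2 ratio was -2.49, and leaving out the library labelled Htr2b_cKO 3 gave -1.43. The median log2 fold change of the 9 genes was -1.53 (range -3.09 to -0.71, all 9 below 0), beside -0.00 over the 15840 genes tested, of which 7922 were below 0. By edgeR's adjusted p, 0 of the 9 genes passed, where 0.0189% of all tested genes did, and DESeq2 also called 0, where it called 0.647% of genes. At an unadjusted p under 0.05, 1 gene, Ighg2b, was lower, where 2.99% of all tested genes were. In 3 of the 9 (Ighm, Igkc and Ighg2b) every Htr2b_cKO library lay below both controls, which held for 8.98% of all tested genes. Since the family was selected on this contrast, nothing is read from these counts.

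Levels of different genes were compared per kilobase of exon, counting all annotated exons of a gene. This length was 2678 bases for Ighg2b and 1326 for Ighg2c, whose coding sequences have 1007 and 1004 bases. The orders below depend on these annotated lengths, and how far they do was not tested. Igkc was highest, at 650 ± 78.9 CPM per kb in controls (SD, n = 2) and 227 ± 210 in Htr2b_cKO (SD, n = 4), and lay above Ighm in 6 of 6 libraries. Ighm followed at 551 ± 1.41 and 190 ± 186 CPM per kb and lay above Igha in 6 of 6. The next 4 genes were not ordered beyond their spread between libraries, with means over the 6 libraries of 18.3 CPM per kb for Igha, 12.2 for Ighg2c, 11.6 for Ighg2b and 9.76 for Iglc2. Igha exceeded Ighg2c in 4 of 6 libraries, Ighg2c exceeded Ighg2b in 3 and Ighg2b exceeded Iglc2 in 2. Iglc2 lay above Ighg3 (4.61 CPM per kb) in 6 of 6. Ighg3 exceeded Ighg1 (1.3 CPM per kb) in 4 of 6, and Ighg1 exceeded Ighd (0.684 CPM per kb) in 2 of 6.

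Isotype use, the share of each heavy chain gene in the heavy chain constant counts of a library, was dominated by IgM. Ighm took 80.8% and 85.6% of these counts in the controls and 93.8%, 73.2%, 88.3% and 84.9% in the Htr2b_cKO libraries. The highest and the lowest share were both in Htr2b_cKO libraries, so the groups overlapped. The 95% exact Clopper-Pearson intervals were narrow, from 80.5% to 81.1% in control 1 and from 72.1% to 74.3% in Htr2b_cKO 2, and cover counting error only. The group means were 83.2% ± 3.42 (SD, n = 2) and 85% ± 8.68 (SD, n = 4), a difference of 1.83 percentage points, within the spread of the libraries. Per kilobase the shares of Ighm were 85.4% and 86.2% in the controls and 95.4%, 76.9%, 86.6% and 88.4% in the Htr2b_cKO libraries. These shares depend on the same annotated exon lengths. Gene counts do not separate the secreted form of IgM from the membrane form, which come from 1 gene by a choice of end exons.

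The IgG genes together took 11.5% and 9.21% of heavy chain counts in the controls and 0.193%, 12.9%, 8.45% and 6.06% in the Htr2b_cKO libraries. Htr2b_cKO 1 was far below all others, with 9 IgG counts among 4658 (interval 0.0884% to 0.366%), while Htr2b_cKO 2 lay above both controls and the other 2 below both. The means were 10.4% ± 1.63 (SD, n = 2) and 6.91% ± 5.31 (SD, n = 4), a difference of -3.45 percentage points. Without Htr2b_cKO 1 this difference was -1.21 percentage points. Igha took 7.42% and 5.06% in the controls and 5.62%, 13.7%, 2.49% and 8.99% in the Htr2b_cKO libraries, with means of 6.24% ± 1.67 (SD, n = 2) and 7.71% ± 4.81 (SD, n = 4). The highest and lowest IgA shares were again both among the Htr2b_cKO libraries. Ighd took 0.0201% to 0.79% of the heavy chain counts in the 6 libraries.

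**Figure D2:**
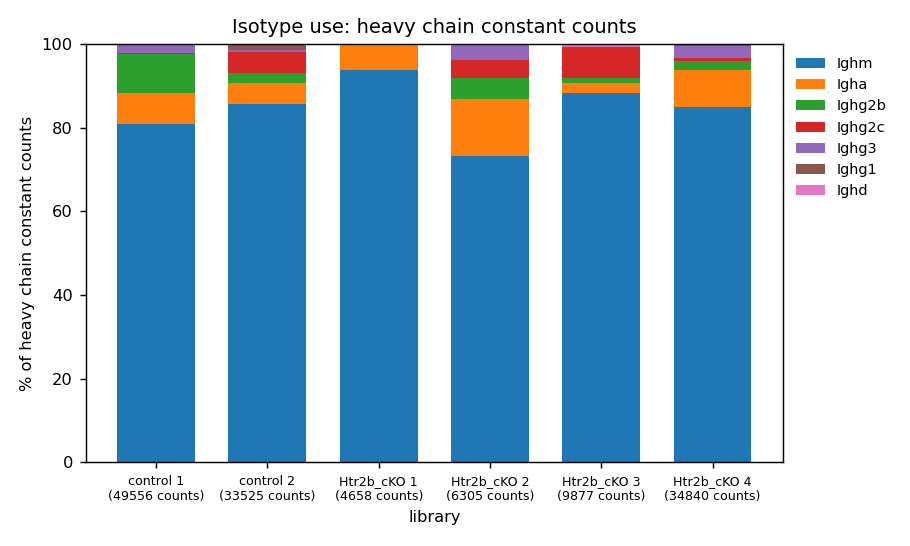
Share of each heavy chain constant gene (% of heavy chain constant counts) in each library, as stacked bars that start at 0, with the counts behind each bar under its name. Ighm takes 73.2% to 93.8% in all 6 libraries, and Htr2b_cKO 1 shows almost no IgG.

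Use of the IgG subclasses had no common pattern within either group. In control 1, Ighg2b made up 81.8% of 5707 IgG counts (interval 80.8% to 82.8%). In control 2, Ighg2c made up 53.1% of 3089 (51.3% to 54.9%) and Ighg2b 26.7%. The leading subclass thus differed between the 2 controls. In Htr2b_cKO 2 the 816 IgG counts were spread over Ighg2b (39.3%), Ighg2c (31.7%) and Ighg3 (28.9%). In the library labelled Htr2b_cKO 3, Ighg2c made up 85.9% of 835 counts (83.3% to 88.2%). In the library labelled Htr2b_cKO 4, Ighg3 led with 49.4% of 2113 counts (47.3% to 51.6%), ahead of Ighg2b with 35.5%. Each of these 5 libraries had its own mixture of assigned counts, with differences outside counting error. Counting error does not cover reads shared by Ighg2b and Ighg2c or reads of an Ighg2a allele. The part of these in the mixtures was not tested. The 9 IgG counts of Htr2b_cKO 1 were all assigned to Ighg1, and so few allow any other subclass a share of up to 33.3%. Ighg1, the subclass of many responses to protein antigens, had 0 of 5707 IgG counts in control 1, which allows up to 0.0526%, and 14.5% in control 2.

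**Figure D3:**
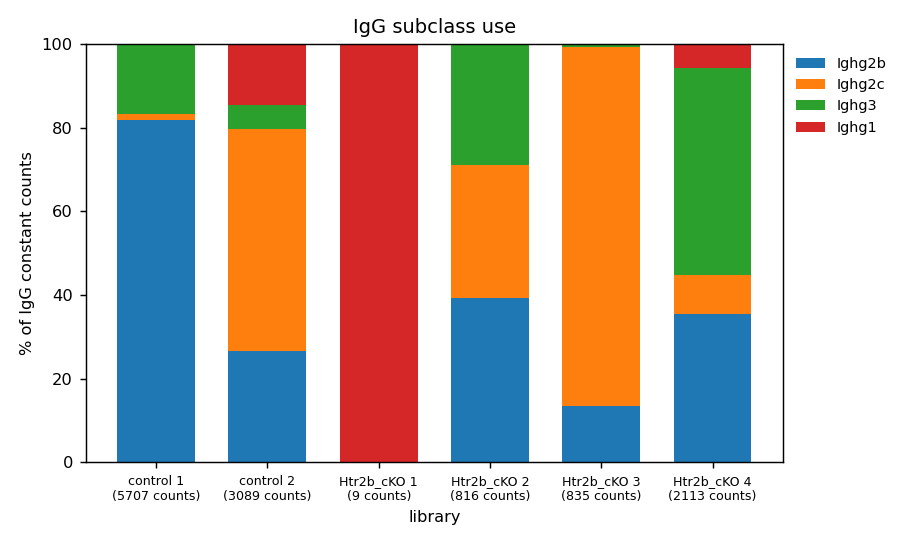
Share of each IgG subclass gene (% of IgG constant counts) in each library, as stacked bars that start at 0, with the IgG counts under each name. The leading gene is Ighg2b in control 1 and Htr2b_cKO 2, Ighg2c in control 2 and Htr2b_cKO 3, and Ighg3 in Htr2b_cKO 4, while Htr2b_cKO 1 rests on 9 counts.

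The ratio of heavy to light chain varied little beside the levels themselves. There were 2.77 and 3.28 Ighm counts per Igkc count in the controls and 2.85, 2.82, 2.8 and 3.07 in the Htr2b_cKO libraries, although the level of Ighm itself spanned 7.49-fold over the 6 libraries and that of Igkc 7.62-fold. The highest of the 6 ratios was 1.18 times the lowest, and the groups overlapped. Per kilobase, the measured heavy chain genes stood to Igkc plus Iglc2 at 0.887 and 1.05 in the controls. The values in the Htr2b_cKO libraries were 0.835, 0.999, 0.901 and 0.95. Lambda genes other than Iglc2 are not in this ratio.

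Kappa far outweighed lambda, as is known of mouse light chains. There were 26.6 and 43.6 Igkc counts per Iglc2 count in the controls and 90.1, 24.8, 66.2 and 27.4 in the Htr2b_cKO libraries. Igkc made up 96.4% and 97.8% of Igkc plus Iglc2 counts in the controls and 98.9%, 96.1%, 98.5% and 96.5% in the Htr2b_cKO libraries. The highest ratio, in Htr2b_cKO 1, rested on 17 Iglc2 counts. The mean ratios were 35.1 ± 12 (SD, n = 2) and 52.1 ± 31.6 (SD, n = 4), with overlapping groups. The variable segments gave a lower ratio, of 11.1 and 7.24 Igkv counts per Iglv count in the controls and 57.4, 9.59, 8.36 and 7.11 in the Htr2b_cKO libraries. The lambda segment Iglv1, which joins to Iglc1 or Iglc3, had 1.7 and 5.76 counts per Iglc2 count in the controls and 1.47, 2.17, 8.21 and 3.52 in the Htr2b_cKO libraries, more than Iglc2 itself in all 6. A ratio to Iglc2 is thus not a ratio to all lambda chains. For kappa the segments and the constant gene matched closely, with 1.09 and 1.08 Igkv counts per Igkc count in the controls and 0.936 to 1.25 in the Htr2b_cKO libraries. Ighv counts per heavy chain constant count were 0.198 and 0.253 in the controls and 0.185 to 0.243 in the Htr2b_cKO libraries.

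**Figure D4:**
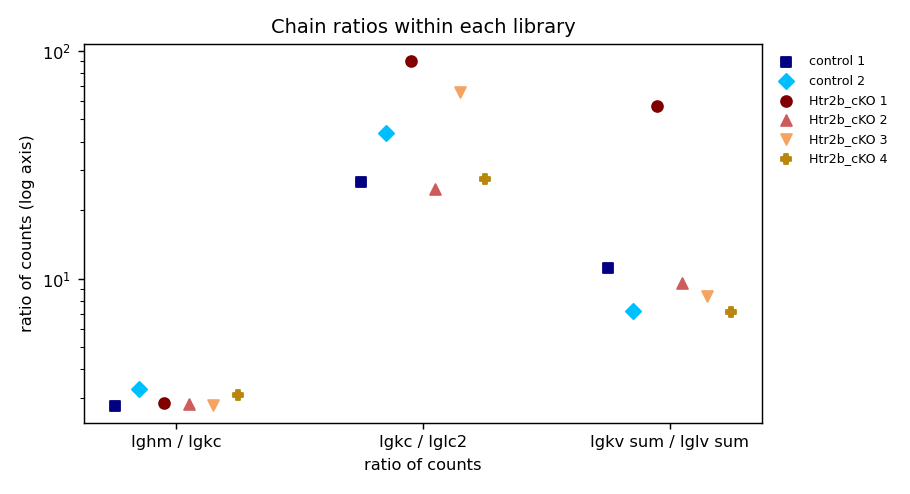
Ratios of counts within each library (log axis): Ighm to Igkc, Igkc to Iglc2, and summed Igkv to summed Iglv segments, 1 point per library. The Ighm to Igkc points lie between 2.77 and 3.28, whereas both kappa to lambda ratios spread and have their highest point in Htr2b_cKO 1.

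Of 14 plasma cell and secretion genes, 13 had counts in all 6 libraries, and their counts per Ighm count spanned 1.36-fold (Jchain) to 26.4-fold (Slamf7). The span was under 2-fold for 3 of the 13, Jchain, Mzb1 and Pou2af1, and was 9.19-fold for Sdc1 and 12.3-fold for Ell2. Of 11 tested B cell genes, 7 had counts in all libraries and spanned 6.72-fold to 29.5-fold. Genes are described here after their values were seen. Jchain, the joining chain that links IgM and IgA into polymers, had 107 and 137 counts per 1000 Ighm counts in the controls and 125, 145, 112 and 115 in the Htr2b_cKO libraries. The highest of these ratios was 1.36 times the lowest. Mzb1, a chaperone of IgM assembly in the endoplasmic reticulum, had 16.1 and 14.4 per 1000 against 12.1, 16.7, 18.8 and 10.4. Pou2af1, a coactivator of immunoglobulin transcription, had 7.42 and 7.52 per 1000 against 8.47, 12.8, 10.2 and 8.04, higher in all 4 Htr2b_cKO libraries than in either control. Cd79a, a signalling chain of the B cell receptor, had 7.47 and 2.16 per 1000 against 7.33, 5.63, 10.9 and 1.62, a span of 6.72-fold. Pax5, a transcription factor that plasma cells switch off, spanned 15.4-fold, from 0.879 per 1000 in the library labelled Htr2b_cKO 4 to 13.5 in the library labelled Htr2b_cKO 3. Ighd, the isotype of naive cells, spanned 37.8-fold relative to Ighm, from 0.237 to 8.95 per 1000 in the same pair of libraries.

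Over the 6 libraries the log2 sum of the 9 constant genes had a Pearson correlation of 1.00 with Igkc and Ighm, which dominate it, 0.94 with Iglc2, 0.85 with Igha, 0.80 with Ighg2b, 0.73 with Ighg3, 0.53 with Ighg1, 0.43 with Ighg2c and 0.30 with Ighd. Each gene is part of the sum. Among 11914 genes outside the immunoglobulin families, 24 reached a correlation of 0.95 or more with it. The 8 most alike were Cxcl3, a chemokine that draws neutrophils (0.996), Pou2af1 (0.994), Jchain (0.992), Nubpl, a factor of mitochondrial complex I assembly (0.990), Tada3, an adaptor of histone acetyltransferases (0.988), Gstm7, a glutathione transferase (0.981), Rpia, ribose 5-phosphate isomerase (0.981), and Pgap3, which remodels GPI anchors (0.980). With 6 libraries and so many genes searched, these are descriptions and carry no p. Their amplitudes differed: between the highest and the lowest library Jchain spanned 7.32-fold and Pou2af1 5.92-fold, as Ighm did 7.49-fold, but Cxcl3 spanned 2.89-fold, Gstm7 2.18-fold and Tada3 1.26-fold.

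**Figure D5:**
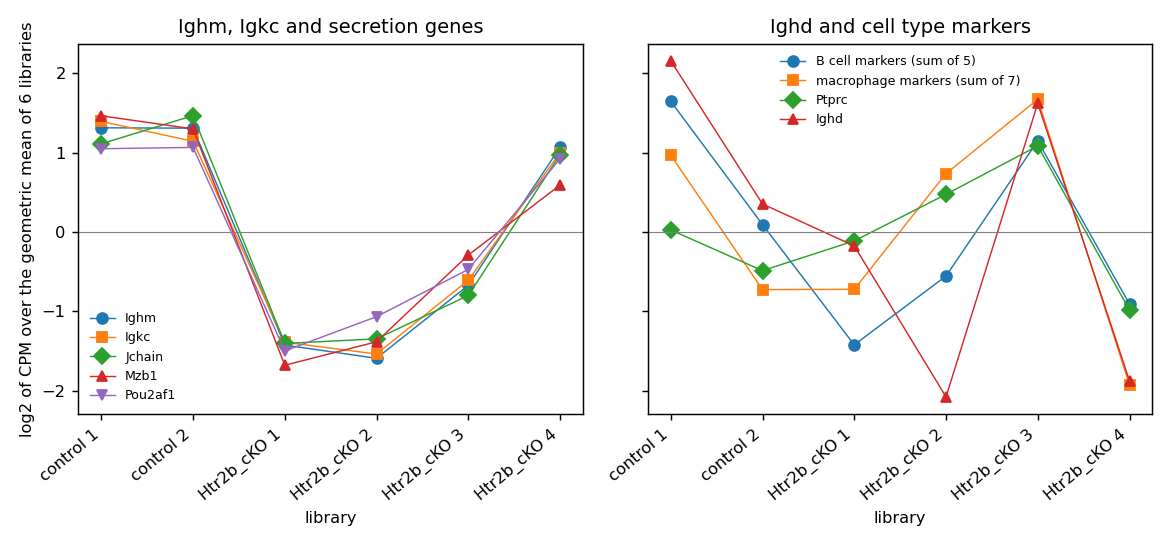
Level of each gene or marker sum in each library, as log2 of CPM over its geometric mean in the 6 libraries, with lines only to guide the eye. On the left Ighm, Igkc, Jchain, Mzb1 and Pou2af1 are high in both controls and Htr2b_cKO 4, and on the right Ighd, 5 B cell markers, 7 macrophage markers and Ptprc are low in Htr2b_cKO 4 and high in Htr2b_cKO 3.

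Of 14 plasma cell and secretion genes, all were tested and none passed edgeR's adjusted threshold in either direction, while 1, Mzb1, was lower at an unadjusted p under 0.05, as 2.99% of all tested genes were. Their median log2 fold change was -0.43, with 9 of 14 below 0, beside -0.00 and 7922 of 15840 over all genes tested. Mzb1 had 16.7 and 14.9 CPM in the controls against 1.89, 2.32, 4.95 and 9.12 CPM (log2 fold change -1.78, SE 0.54, edgeR adjusted p 0.41). All 4 Htr2b_cKO libraries lay below both controls, which held for 8.98% of all tested genes. DESeq2, which called 0.647% of all genes it tested, called Mzb1 (adjusted p 0.0474, log2 fold change -1.79). Jchain had 111 and 142 CPM against 19.4, 20.2, 29.5 and 101 CPM (log2 fold change -1.57, SE 0.72, edgeR adjusted p 0.573). Without the library labelled Htr2b_cKO 4 Jchain passed (log2 fold change -2.46, edgeR adjusted p 0.0179), as 0.0513% of all genes tested in that setting did. Jchain and Mzb1 had correlations of 0.99 and 0.98 with the sum of the constant genes, a family selected on this contrast. Nothing is therefore read from the calls of Jchain and Mzb1. Pou2af1 had 7.72 and 7.81 CPM against 1.32, 1.78, 2.69 and 7.07 CPM (log2 fold change -1.25, edgeR adjusted p 0.547). The other abundant genes of the list had smaller fold changes: Xbp1, a regulator of the unfolded protein response, had log2 fold change -0.31 (SE 0.17), Sdc1 (syndecan-1) 0.06 (SE 0.26), the elongation factor gene Ell2 0.31 (SE 0.32) and Tent5c, a poly(A) polymerase that stabilises immunoglobulin mRNA, -0.55 (SE 0.30).

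Of 13 B cell genes, 11 were tested and none passed in either direction by edgeR or DESeq2. Cd79a and Ms4a1 were lower at an unadjusted p under 0.05, as 2.99% of all tested genes were. The median log2 fold change was -1.35 and 10 of 11 were below 0, beside -0.00 and 7922 of 15840 over all genes tested. Cd79a had 7.78 and 2.24 CPM in the controls against 1.14, 0.783, 2.87 and 1.43 CPM (log2 fold change -1.72, SE 0.58, edgeR adjusted p 0.427), so the library labelled Htr2b_cKO 3 exceeded control 2. Its partner Cd79b had log2 fold change -1.35 (SE 0.64), the B cell transcription factor Pax5 -1.01 (SE 0.74), the inhibitory receptor Cd22 -0.53 (SE 0.97) and the leukocyte tetraspanin Cd37 -0.37 (SE 0.81). Ebf1, a B cell transcription factor that stromal cells also express, ran from 43.6 to 55.3 CPM in all 6 libraries and had log2 fold change 0.10 (SE 0.14).

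Of 6 genes that take part in class switching, all were tested and none passed in either direction by edgeR or DESeq2 (median log2 fold change -0.05, 3 of 6 below 0). Most are DNA repair genes of all dividing cells: Msh6 had log2 fold change 0.14, Trp53bp1 0.12 and Ung -0.22. Rif1, which protects broken DNA ends, had 10.2 and 12.7 CPM against 16.1, 23.7, 17.6 and 18.9 CPM (log2 fold change 0.74, SE 0.21, edgeR adjusted p 0.378). It was the single gene of the list with an unadjusted p under 0.05, where 6.6% of all tested genes were higher. Bach2, which delays plasma cell formation, had log2 fold change -0.36, and Batf, a transcription factor of activated lymphocytes, -0.57. Of 6 genes of V(D)J recombination and the surrogate light chain, 1 (Vpreb1, 0.0712 to 0.564 CPM) passed the filter, and it passed neither edgeR's nor DESeq2's threshold, nor an unadjusted 0.05.

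Receptors and carriers of immunoglobulin, 9 of 13 tested, had a median log2 fold change of -0.18 and none passed by edgeR or DESeq2. Fcmr, the Fc receptor of IgM on lymphocytes, had 1.92 and 0.903 CPM in the controls against 0, 0, 0.573 and 0 CPM (log2 fold change -3.27, SE 1.03, edgeR adjusted p 0.397), and was the 1 gene with an unadjusted p under 0.05, where 2.99% of all tested genes were lower. Fcgrt, the neonatal Fc receptor that rescues IgG from breakdown, had 149 to 230 CPM (log2 fold change -0.18, SE 0.18). Among the IgG receptors of macrophages, Fcgr1, Fcgr2b and Fcgr3 had log2 fold changes of -0.02, 0.19 and 0.00. Fcer1g, the signalling chain of Fcgr1 and Fcgr3, had -0.11. Cd5l, a macrophage protein that binds the IgM pentamer, had 42.7 and 41.9 CPM against 9.19, 62, 22 and 1.48 CPM, with overlapping groups (log2 fold change -0.83, SE 1.13).

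Markers of other cells also varied between these sorted libraries. The 5 B cell markers (Ms4a1, Cd79a, Cd79b, Pax5, Cd22) summed to 28.1 and 9.58 CPM in the controls against 3.35, 6.11, 19.9 and 4.78 CPM in Htr2b_cKO, with Ms4a1 at 0 in Htr2b_cKO 1. The 6 plasma cell markers (Jchain, Mzb1, Tnfrsf17, Derl3, Sdc1, Prdm1) summed to 366 and 383 CPM against 286, 298, 179 and 385 CPM, most of it Sdc1, with Tnfrsf17 at 0 in 2 Htr2b_cKO libraries. The 7 T cell markers summed to 1.39 to 6.87 CPM, and the 3 NK cell markers to 0.468 CPM or less. Ptprc, the leukocyte antigen CD45, had 27.4 and 19.2 CPM in the controls and 24.9, 37.4, 57.1 and 13.6 CPM in the Htr2b_cKO libraries, an order of libraries unlike that of Ighm. The 7 macrophage markers summed to 2354 and 728 CPM against 730, 2006, 3838 and 317 CPM. The 4 neutrophil markers summed to 95.9 and 33.1 CPM against 23.3, 26.7, 33.4 and 74.3 CPM. The high sum of Htr2b_cKO 4 came from S100a8 and S100a9, at 23.3 and 42.2 CPM there. Csf3r was lower in Htr2b_cKO 4 (8.73 CPM) than in Htr2b_cKO 3 (13.4 CPM), and Ly6g had 0 CPM in Htr2b_cKO 4. The 3 endothelial markers summed to 33.5 to 176 CPM, the 4 erythroid markers to 5.97 to 58.2 CPM and the 3 mural markers to 18.1 to 62.3 CPM, each highest in control 1. Of 45 markers tested, 0 passed edgeR's adjusted threshold (0.0189% of all genes) and 1, Mzb1, passed DESeq2's (0.647% of all genes). At an unadjusted p under 0.05, 5 were lower (Ms4a1, Cd79a, Mzb1, Trac and Myh11), as 2.99% of all tested genes were. The part of these cells, of the sex of Htr2b_cKO 4 and of the sort in the constant gene values was not tested.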

How the data were processed

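RNA-seq libraries were 2 control and 4 Htr2b_cKO. The authors deposited estimated counts per Ensembl gene, whole numbers whose column names, per the file headers, are those of a transcript quantifier's gene output, and a normalized signal, which was used as an alternative. DRAGEN, DESeq2 and the build mm10 are named per the submitters' processing notes, and their roles and versions, the strand setting and the annotation were not stated in the labels or headers. Symbols (42170 of 42256 identifiers), coordinates, exon lengths and sequences came from GENCODE M21 of the same build. No library was a copy of another: over the 15 pairs, the chi-square per degree of freedom was 50.4 or more.

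CPM used TMM-scaled totals. The edgeR 4.0.16 quasi-likelihood test (R 4.3.3, filterByExpr, robust, two-sided, genotype as the only term) covered 15840 genes, with Benjamini-Hochberg adjustment over all of them and a threshold of 0.05. SE is the fold change over the square root of F. DESeq2 1.42.0 and leaving out libraries were alternatives. The procedure was tested on simulated data in which all genes had the same variability and all Htr2b_cKO libraries the same change. The constant genes are unlike that setting, so the test does not show how well the procedure works for them. Share intervals are exact Clopper-Pearson at 95%.

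The members, lists and tests were chosen with earlier results of these data known. Named genes were the members, other constant genes, up to 6 genes per list by mean CPM (at least 1), any called, and the 8 genes most correlated with the member sum. Ms4a1, Fcmr, Vpreb1, Trac and Myh11 were named after their values were seen. A few genes of the lists are not reported here and were left out of every list count and marker sum.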

Additional observations from a re-analysis of the deposited data

Results flagged for a closer look

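Among 78 quantities examined for a Htr2b_cKO library far from the other 3, 8 stood apart, and chance marks about 5% of such groups. The quantities are not independent, since Ighm is part of the constant gene sum and several move together. Nothing is therefore read from how many stood apart. In 5 of the 8 the distant library was the one labelled Htr2b_cKO 4, which was also the only male. Ighm was at 879 CPM there, against 139 to 263 CPM in the other 3. The sum of the constant genes was at 1331 CPM there, against 221 to 393 CPM. Ighg1 was at 3.65 CPM, against 0 to 0.321 CPM, and Iglc2 at 10.5 CPM, against 0.605 to 1.99 CPM. Jchain was at 101 CPM, against 19.4 to 29.5 CPM.

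In the library labelled Htr2b_cKO 3, whose Htr2b count lay above both controls, the 5 B cell markers summed to 19.9 CPM, against 3.35 to 6.11 CPM in the other 3. Sdc1 was low there, at 141 CPM against 263 to 273 CPM. In Htr2b_cKO 1, Igkv segments had 57.4 counts per Iglv count, on 25 Iglv counts, against 7.11 to 9.59 in the other 3.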

How the results depend on the processing

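The controls number 2, which limits every comparison. No paired analysis was possible because the labels number no replicates, and the numbers used here are names only. Of 123 alternatives to the main results, 111 kept the result within its spread or threshold. Many of the 123 concern counts of called genes that were 0 in the main fit. A change of sign within the spread was taken as kept, so the tally does not measure how stable a direction was. The number of genes called over all genes, 3, was 1 to 8 when 1 library was left out (1 without control 1, 6 without control 2, 8 without Htr2b_cKO 4), 5 without a filter on low counts and 105 by DESeq2. Leaving out the libraries labelled Htr2b_cKO 3 and Htr2b_cKO 4 together, an alternative chosen after seeing the data, gave 5. The number of constant genes called, 0, was 0 to 1 when 1 library was left out (1 of 8 fitted without Htr2b_cKO 4) and 2 of 8 without both. These were Ighm, and Ighm and Igkc, the genes on which the family was selected, so nothing is read from them. For the plasma cell list, with 0 called, it was 0 to 1 when 1 library was left out (Jchain without Htr2b_cKO 4), 1 without both (Jchain) and 1 by DESeq2 (Mzb1). Jchain and Mzb1 followed the constant gene sum, so nothing is read from these calls either. The log2 ratio of the constant gene sums, -1.56, was -1.29 to -2.49 when 1 library was left out and -2.80 without both, where Ighm was at -2.82 and Igkc at -2.74. Of the 9 genes, 7 kept a fold change below 0 under all alternatives that gave one, and Ighg2c turned to 2.05 without control 2 and Ighg3 to 0.61 without control 1. No fold change of Ighg1 is given without control 2, since control 1 has 0 counts, and without Htr2b_cKO 4, alone or with Htr2b_cKO 3, Ighg1 failed the filter on low counts. The difference in IgM share, 1.83 percentage points, ran from -1.08 to 5.77 when 1 library was left out, that in IgA share, 1.47, from -0.539 to 3.21, and that in IgG share, -3.45, from -5.46 to -1.21. The kappa to lambda difference, 17.1, ran from 4.4 to 26.2. Counts of IgG genes in Htr2b_cKO 1 were too few to give subclass use.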
